A study of Mus musculus with 8 samples.

Results

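The CHMP (charged multivesicular body protein) genes encode the subunits of ESCRT-III, the part of the endosomal sorting machinery that cuts membranes from the inside. Of the 31053 genes counted in single nuclei of mouse cortex, 10 carried a symbol of this family and were described here, namely Chmp1a, Chmp1b, Chmp2a, Chmp2b, Chmp3, Chmp4b, Chmp4c, Chmp5, Chmp6 and Chmp7. They were chosen by symbol, with earlier results of these data known. Single-nucleus RNA-seq (10x, 3' end) had been run on cortical nuclei of 8 naive C57BL6J mice aged 6 weeks, 4 wild-type (Wt) and 4 Ifnar1-/-, with 2 females and 2 males of each genotype and 1 library per mouse. Ifnar1-/- mice lack the first chain of the type I interferon receptor in every cell of the body, from the germline, so a difference between genotypes is not restricted to 1 cell type. No treatment was given to either group. After filtering and removal of called doublets, 52054 of 56780 barcodes were kept, with 39567987 to 53482467 UMIs (unique molecular identifiers, 1 per captured RNA molecule) per library.

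ESCRT-III proteins lie inactive in the cytosol and assemble into filaments on a membrane, which narrow its neck and are then taken apart by the VPS4 ATPase. Chmp6 links the upstream ESCRT-II complex to the Chmp4 proteins, which form the main filament, and Chmp3, Chmp2a and Chmp2b join it and bring in VPS4. Chmp1a, Chmp1b and Chmp5 act late and regulate disassembly, and Chmp7 works with Lemd2 at the nuclear envelope. The machinery sorts receptors into multivesicular bodies, completes autophagosomes and seals membranes, and mutations of CHMP2B cause a form of frontotemporal dementia in people.

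Promoter sequence is shown for Chmp3 and Chmp4b, the members with the most counted molecules, whose levels also varied alike (Pearson's r = 0.89 over 32 sums, the 4 large cell classes described below in 8 mice, given as a description since sums share libraries, and equal to that of Chmp4b with Chmp5). RefSeq sequence (GRCm38.p6) was at hand for 6 members with 7 windows of 250 bases before to 50 after the start. The 250 bases before the start are printed 5' to 3', with the reverse complement of the CCAAT box in capitals.
Chmp3, chr6:71544103-71544352, plus strand: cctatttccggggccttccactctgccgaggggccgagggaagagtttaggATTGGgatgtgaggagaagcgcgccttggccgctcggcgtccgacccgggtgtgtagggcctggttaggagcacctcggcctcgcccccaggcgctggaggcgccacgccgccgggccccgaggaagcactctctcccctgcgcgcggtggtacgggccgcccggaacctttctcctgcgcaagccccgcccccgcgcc
Chmp4b, chr2:154656776-154657025, plus strand: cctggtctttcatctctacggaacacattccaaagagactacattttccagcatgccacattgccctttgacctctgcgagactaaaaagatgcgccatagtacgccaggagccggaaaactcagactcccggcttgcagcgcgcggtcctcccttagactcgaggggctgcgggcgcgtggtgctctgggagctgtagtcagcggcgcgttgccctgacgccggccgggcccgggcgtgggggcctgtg
The Chmp3 stretch held 28 CpG dinucleotides and 72.0% G or C, and the Chmp4b stretch 21 and 62.0%. None of the 7 windows held the interferon-stimulated response element, searched as GAAANNGAAA on both strands, which 3.44% of 32851 RefSeq promoters of the same length hold. The CCAAT box (CCAAT, both strands) was found in 1 window, the printed one of Chmp3, and in 37.4% of all promoters. Chmp3 has 2 windows, of which the downstream one is printed. The other (71543602 to 71543901) had no CCAAT box, and over its full length it held 49.7% G or C and 14 CpG dinucleotides against 71.0% and 32 for the printed start. No window held TATAAA, found in 13.6% of all promoters. A match or its absence describes these letters only.

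Nuclei were grouped by clustering without any CHMP or other ESCRT gene, so the levels below took no part in forming the classes. The classes were glutamatergic neurons (Glut, 24315 nuclei), GABAergic neurons (GABA, 6582), oligodendrocytes (Oligo, 7300) and microglia (Micro, 4386), each named from marker genes, and smaller classes of oligodendrocyte precursors (451), astrocytes (162) and striatal projection neurons (957). A further 7901 nuclei stayed unnamed. The defining markers of each class were detected in it. The summed microglial markers had a median of 19900 CPM in Micro against 104 CPM in Glut, and the oligodendrocyte markers 26500 CPM in Oligo against 140 CPM in Glut. CPM is the usual depth-scaled count, in which the UMIs of a gene are given per 1e6 UMIs of that class and library. RNA of neurons was also counted in glial nuclei, since the summed neuronal markers stood at 6.79% of their Glut level in Oligo and 11.0% in Micro. Median depth per nucleus was 8836 UMIs in Glut, 6960 in GABA, 2078.5 in Oligo and 1472 in Micro. Libraries shared 3 to 29 barcodes per pair.

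The labels were checked on Ifnar1 itself and on the sex-linked genes. In Micro, Ifnar1 stood at 62.1, 42.4, 54.3 and 56.7 CPM in the 4 Wt libraries and at 22.9, 28.6, 30.8 and 36.2 CPM in the 4 Ifnar1-/- libraries. These groups did not overlap, yet the difference (log2 fold change -0.81, SE 0.22) did not pass the threshold over all genes in edgeR (adjusted p = 0.9999). In Glut the means were 17.1 ± 1.35 CPM (SD, n = 4) in Wt and 14.5 ± 1.93 CPM (SD, n = 4) in Ifnar1-/-, and the libraries overlapped. Counts at the 3' end and from introns do not show whether the transcript is intact, so they do not check the deletion directly. Xist was at 825 CPM or more in all 4 female libraries and at 0.524 CPM or less in all 4 male libraries.

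The family was covered unevenly. Over all nuclei, Chmp3 gave 16921 UMIs, Chmp4b 12638, Chmp7 6169, Chmp5 6061, Chmp2a 4857, Chmp1a 4398, Chmp4c 3930, Chmp2b 2899 and Chmp6 1223. Unspliced RNA was counted, so a long gene offers more sequence to capture, and levels are compared between genes only per kilobase of gene span. On that scale Chmp2a came first with 4.66 CPM per kb (2.8 kb span), followed by Chmp1a with 1.39 and Chmp3 with 1.17. Chmp7 (1.06), Chmp5 (0.962), Chmp4b (0.787), Chmp6 (0.537) and Chmp2b (0.33) came next. Chmp4c was lowest among the detected members at 0.17 CPM per kb, over a span of 62.0 kb. Before division by span these 2 were close, at 13.0 CPM for Chmp2a and 10.5 CPM for Chmp4c. Whether 3' end counts rise in proportion to span was not tested, so this order is not one of RNA level.

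Chmp1b was at 0 UMIs in every library and class. With 372814179 UMIs in all, a count of 0 allows up to 0.00805 CPM (3 UMIs, counting error only). Chmp1b is a single-exon gene of 2.52 kb on chromosome 18 (GRCm38, 67205366 to 67207889, plus strand) and lies wholly inside Gnal on the same strand. Of 417 protein-coding genes lying wholly inside another counted gene on the same strand, 416 were at 0 UMIs (99.8%), against 63 of 756 (8.33%) lying inside a gene on the opposite strand only and 1865 of 20801 (8.97%) of the others. The 0 of Chmp1b is therefore not read as absence of its RNA, and the comparisons below rest on the other 9 members. Chmp1a lies wholly inside Gm20388 on the opposite strand, and 17.8% of Chmp4c overlaps Snx16 on the opposite strand. The longest run of bases shared between transcripts of any pair of members was 17, between Chmp4b and Chmp4c.

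The first comparison asked how the family differs between cell classes. Summed over its members, the family reached 145 ± 14.3 CPM in Glut, 157 ± 20.5 CPM in GABA, 263 ± 21.3 CPM in Oligo and 323 ± 33.9 CPM in Micro (SD, n = 8 mice each). The lowest Oligo library (235 CPM) lay above the highest library of Glut (165 CPM) and of GABA (184 CPM), and Glut and GABA overlapped. Tests used sums per class and mouse with the mouse as a block, in edgeR's quasi-likelihood test with TMM scaling and Benjamini-Hochberg adjustment over 15043 genes. Most genes of all kinds differ between such classes, so the shares called over all genes are given beside each count.

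**Figure D1:**
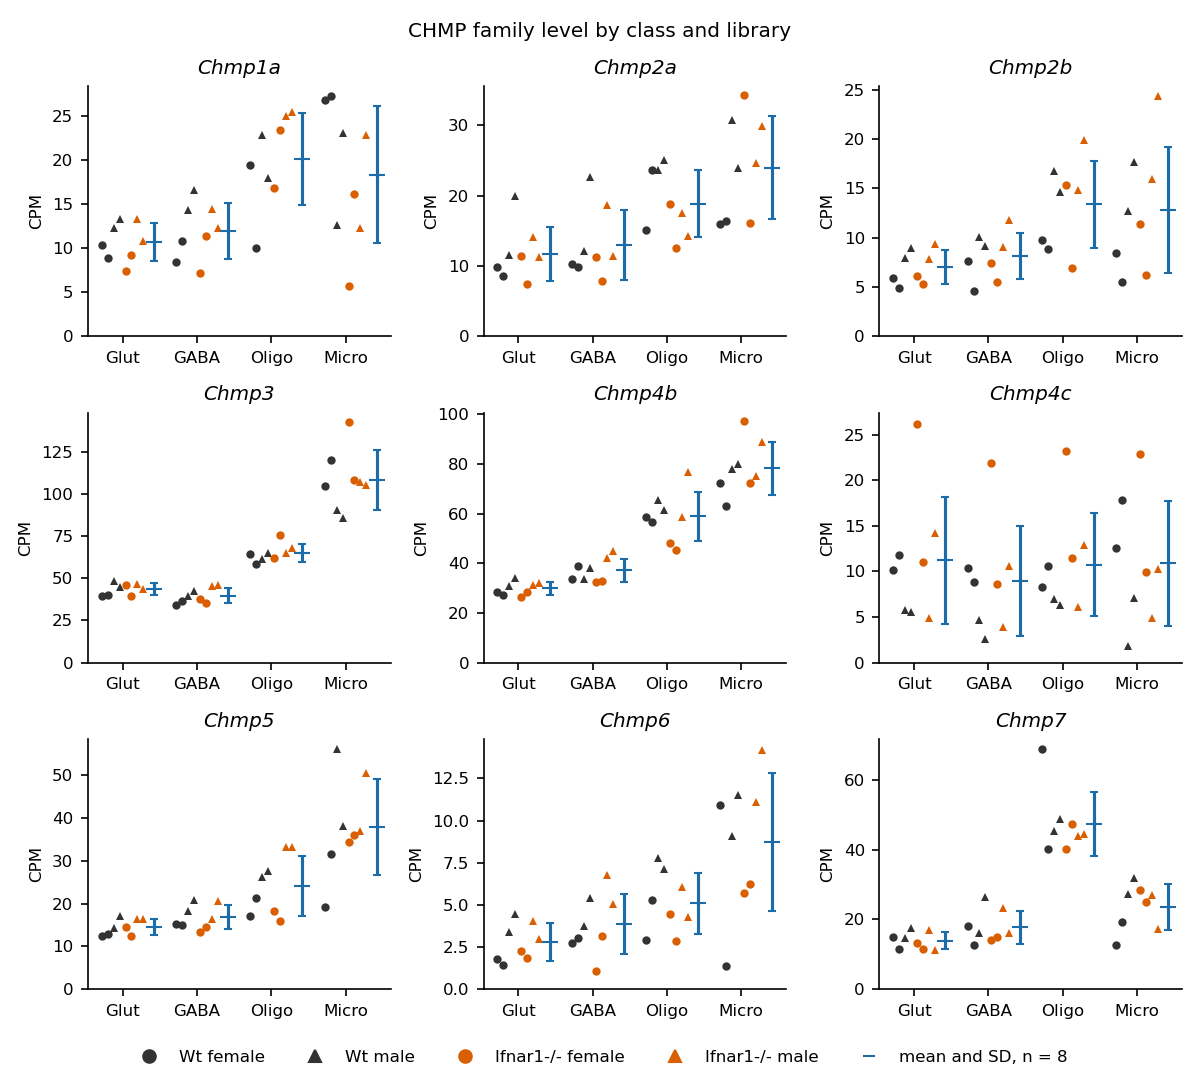
Level of each detected CHMP gene in CPM (y axis, linear from 0) in the 4 large classes (x axis), 1 point per library coloured by genotype and shaped by sex, with the mean and SD over 8 mice to the right. Chmp7 is highest in Oligo (40.1 to 68.8 CPM). Chmp3 and Chmp4b have their highest mean in Micro, but Chmp4b did not differ between Micro and Oligo past the threshold.

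Against Glut, 8 of 9 members rose in Oligo and none fell, where 80.3% of all genes were called and 38.0% were called higher. Against Glut, 7 of 9 rose in Micro and Chmp4c fell, where 80.6% of all genes were called and 37.8% called higher. Against GABA, 8 of 9 rose in Oligo, with 77.1% of all genes called and 36.8% higher, and 7 of 9 rose in Micro, with 78.1% called and 36.9% higher. Between glial classes 4 of 9 were called, 3 of them higher in Micro and 1 lower, where 60.1% of all genes were called and 30.1% were higher in Micro. Between neuronal classes 3 of 9 were called, with 64.0% of all genes called. In either direction the members' share was somewhat above that of all genes in Oligo and Micro against Glut and in Oligo against GABA. In the other contrasts it was near or below that of all genes. For calls of higher levels in glia against neurons it was above that of all genes.

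Chmp7, the nuclear-envelope member, had its highest level in Oligo. Its 8 Oligo libraries ran from 40.1 to 68.8 CPM with a mean of 47.4 ± 9.19 CPM (SD, n = 8), against 13.9 ± 2.47 in Glut, 17.7 ± 4.73 in GABA and 23.6 ± 6.55 in Micro. Every Oligo library lay above every library of the other 3 classes. The log2 fold change was 1.63 (SE 0.09, edgeR adjusted p = 1.09e-18) against Glut, 1.46 (SE 0.10, adjusted p = 5.86e-16) against GABA and -1.38 (SE 0.15, adjusted p = 1.30e-10) for Micro against Oligo. Micro did not differ from Glut past the threshold (0.25, 95% interval -0.06 to 0.55). Within Oligo, the pooled level by cluster was 56.3 CPM (95% Poisson interval 51.1 to 61.9) in the largest cluster, 49.3 (41.2 to 58.5), 48.6 (39.1 to 59.8) and 34.3 (28.8 to 40.6) in 3 others, and 19.3 (10.8 to 31.8) in a cluster of 211 nuclei led by Bcas1, Enpp6 and Gpr17, genes of newly forming oligodendrocytes. These intervals cover counting error only and each cluster pools libraries. The cluster at 48.6 CPM took 70.8% of its nuclei from the Ifnar1-/- F1 library.

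Chmp3, which joins the filament with the Chmp2 proteins, was highest in Micro. It stood at 104.9, 120.4, 90.6 and 86.0 CPM in the Wt libraries and 142.8, 108.2, 107.1 and 105.5 CPM in the Ifnar1-/- libraries there, with a mean of 108 ± 17.6 CPM (SD, n = 8). All of these lay above the Oligo range (mean 64.9 ± 5.11 CPM) and above both neuronal classes (43.5 ± 3.49 in Glut and 39.7 ± 4.53 in GABA). The log2 fold change was 0.85 (SE 0.08, edgeR adjusted p = 1.69e-12) in Micro against Glut and 0.42 (SE 0.09, adjusted p = 5.12e-05) in Micro against Oligo. Chmp3 also fell in GABA against Glut, by 0.31 on the log2 scale (SE 0.06, adjusted p = 2.48e-05), but without TMM the value was -0.13 and no longer called.

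Chmp4b, the main filament subunit, rose in both glial classes. It averaged 29.9 ± 2.58 CPM in Glut, 37.1 ± 4.69 in GABA, 58.8 ± 9.89 in Oligo and 78.3 ± 10.6 in Micro (SD, n = 8). Log2 fold changes against Glut were 0.84 (SE 0.06, edgeR adjusted p = 2.98e-15) in Oligo and 0.92 (SE 0.07, adjusted p = 6.88e-14) in Micro. The latter classes did not differ past the threshold (0.08, 95% interval -0.08 to 0.24). Chmp4c, the second filament subunit, known for delaying the last step of cell division, did not follow. Its means were 11.2 ± 6.94 CPM in Glut, 8.94 ± 6.06 in GABA, 10.7 ± 5.65 in Oligo and 10.9 ± 6.84 in Micro, and the spread between mice was larger than any difference between classes. With the mouse as a block it fell in GABA against Glut (log2 fold change -0.51, SE 0.09, adjusted p = 9.82e-06), a call that was lost without the block. Its calls in Micro against Glut (-0.42, SE 0.18, adjusted p = 0.0289) and in Oligo against GABA (0.31, SE 0.14, adjusted p = 0.0441) were each lost on leaving out single libraries. The first was lost without Wt M1 (-0.37) or any 1 of the 4 Ifnar1-/- libraries (-0.39 to -0.24), and the second without Wt F2, M1 or M2 or Ifnar1-/- F2, M1 or M2 (0.23 to 0.33).

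Chmp6, the link to ESCRT-II, and Chmp5, which binds the VPS4 partner Vta1, had their highest means in Micro. Chmp5 averaged 14.5 ± 1.88 CPM in Glut, 16.7 ± 2.80 in GABA, 24.1 ± 6.92 in Oligo and 37.8 ± 11.3 in Micro (SD, n = 8), and its log2 fold change in Micro against Glut was 0.91 (SE 0.12, edgeR adjusted p = 5.51e-09). Chmp6 averaged 2.78 ± 1.12, 3.87 ± 1.79, 5.10 ± 1.81 and 8.75 ± 4.09 CPM in the same order, from only 65 UMIs in Micro in all. Its log2 fold change in Micro against Glut was 1.34 (SE 0.24, adjusted p = 4.12e-06). Against Oligo, Chmp5 (0.34, SE 0.13) and Chmp6 (0.61, SE 0.27) were also higher in Micro, but Chmp5 lost its call without Wt M1, Ifnar1-/- F2 or Ifnar1-/- M2 (0.26 to 0.32) and Chmp6 without Wt F1, Wt M2, Ifnar1-/- F2, M1 or M2 (0.40 to 0.66). Chmp1a, Chmp2a and Chmp2b rose in both Oligo and Micro against Glut, with log2 fold changes of 0.77 (SE 0.12), 0.54 (SE 0.11) and 0.78 (SE 0.10) in Oligo and of 0.48 (SE 0.17), 0.54 (SE 0.15) and 0.48 (SE 0.15) in Micro. The call of Chmp2b in Micro was lost without Ifnar1-/- M2 (0.39 against Glut), and against GABA those of Chmp1a without Wt F1 (0.32) and of Chmp2b without Wt M2 (0.38) or Ifnar1-/- M2 (0.33). For these 3 genes none of the differences between Oligo and Micro passed the threshold, with 95% intervals of -0.66 to 0.09 for Chmp1a, -0.33 to 0.33 for Chmp2a and -0.61 to 0.03 for Chmp2b.

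**Figure D2:**
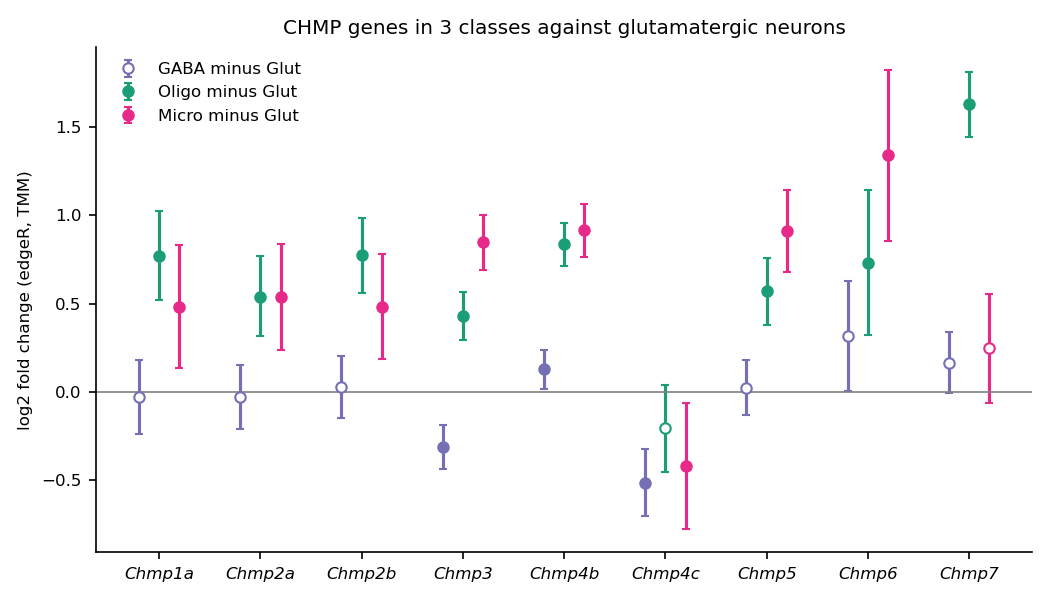
Log2 fold change with its 95% interval (y axis) of each detected CHMP gene (x axis) in GABA, Oligo and Micro against Glut, from edgeR with TMM scaling. Filled points passed an adjusted p of 0.05, and the largest is Chmp7 in Oligo at 1.63.

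Scaling and gene length moved with these differences. Without TMM, the median of all genes shifted by 0.42 in Micro against Glut, 0.27 in Micro against Oligo, 0.24 in Micro against GABA, 0.18 in GABA against Glut and 0.15 in Oligo against Glut. Relative to the median of all genes, the members' values stayed within 0.02 of each other under both scalings, for example -0.33 and -0.31 for Chmp4c in Micro against Glut, whose log2 fold change itself turned from -0.42 to 0.02. Without TMM the share of all genes called higher moved from 30.6% to 47.2% in GABA against Glut, with 5 members higher and 1 lower in place of 1 and 2, and the share called lower moved from 42.8% to 33.1% in Micro against Glut, with 8 members higher and none lower. The share called higher moved from 30.1% to 42.6% in Micro against Oligo, with 4 members higher and 1 lower. Genes under 5 kb had a median log2 fold change of 0.58 in Micro against Glut and genes over 100 kb one of -1.44. Chmp2a, the only detected member under 5 kb, was close to the median of its length class at 0.54. Between 20 and 100 kb, where the median was -0.16, the 4 members were Chmp4b (0.92), Chmp3 (0.85), Chmp2b (0.48) and Chmp4c (-0.42). CPM levels above are not TMM-scaled. The part of scaling, gene length and neuronal RNA in the class differences was not tested.

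Other ESCRT genes were counted from a list of 33, of which 30 passed the filter. In Oligo against Glut 17 were higher and 4 lower (median log2 fold change 0.21, against -0.04 over all genes), where 80.3% of all genes were called and 38.0% called higher. In Micro against Glut 14 were higher and 4 lower (median 0.21, against -0.09), where 80.6% were called and 37.8% called higher. The share of the list called in either direction was thus below that of all genes in both. Of the VPS4 group, Vps4b, a VPS4 ATPase, rose in both (0.70, SE 0.08 in Oligo and 0.63, SE 0.10 in Micro), whereas its relative Vps4a was at 0.10 (SE 0.09) and -0.06 (SE 0.12), neither past the threshold. Lemd2, the partner of Chmp7, was at 0.12 (SE 0.09) in Oligo, not past the threshold, and rose in Micro (0.67, SE 0.10), and Mitd1, a midbody protein that binds CHMP proteins, rose in Oligo (0.35, SE 0.08) and was at 0.17 (SE 0.12) in Micro, not past the threshold. These 2 were added after their values were seen. Vta1, the VPS4 activator, rose by 0.16 in Oligo and 0.51 in Micro. Ist1 and Spast, which bind CHMP proteins and act in midbody cutting, each rose in Oligo (0.45 for both) and were at -0.04 and -0.01 in Micro, neither past the threshold.

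In oligodendrocyte precursors and astrocytes none of the members passed the filter on low counts, and striatal projection neurons were not tested. In astrocytes, pooled over libraries, Chmp4b was at 69.4 CPM (95% Poisson interval 46.8 to 99.1, 30 UMIs), Chmp3 at 44.0 (26.5 to 68.6) and Chmp7 at 16.2 (6.51 to 33.4). In striatal projection neurons Chmp3 was at 58.9 CPM (53.0 to 65.3) and Chmp7 at 13.3 (10.6 to 16.5). The intervals cover counting error only.

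Across the 32 sums, the genes whose level was most like that of each member were found by Pearson's r among genes averaging at least 10 CPM. For Chmp3 they were Zfx (0.98), Oma1 (0.97) and Lpcat3 (0.97), and for Chmp4b Zc3h4, Tug1 and Scaf11 (0.96 each). For Chmp7 they were Dpysl2, Nmral1 and Tbc1d10b (0.93 each), and for Chmp5 Lamtor1 (0.95), Arf1 (0.95) and Ndufa7 (0.94). Chmp2b was closest to Fth1 and Tpt1 (0.93 each) and Smdt1 (0.92), Chmp2a to Ubb (0.90), Hspa8 and Ndufb11 (0.89 each), and Chmp1a to Rbms2 (0.85), Ufd1 and Pqbp1 (0.84 each). Chmp4c was closest to Far1os (0.91), Gm38604 (0.87) and Gm16572 (0.85), and Chmp6 to 5730409E04Rik (0.90), Srsf4 and Rxrb (0.87 each). The sums share mice, libraries and class, so these values are descriptions without a p.

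The second comparison, the study's own, set Ifnar1-/- against Wt. No CHMP gene passed the threshold in Glut, GABA, Oligo, Micro or over all nuclei. Of the 9 members tested in each (7 in Micro, where Chmp4c and Chmp6 were below the filter), 0 were called by edgeR's quasi-likelihood test, 0 had an unadjusted p under 0.05 and DESeq2 also called 0. Few genes of any kind were called, namely 0.0655% of 18308 genes in Glut, 0.0274% of 14613 in GABA, 0.0711% of 11257 in Oligo, 0.105% of 9560 in Micro and 0.0501% of 19943 over all nuclei. For every member and class, the Wt and Ifnar1-/- libraries overlapped.

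**Figure D3:**
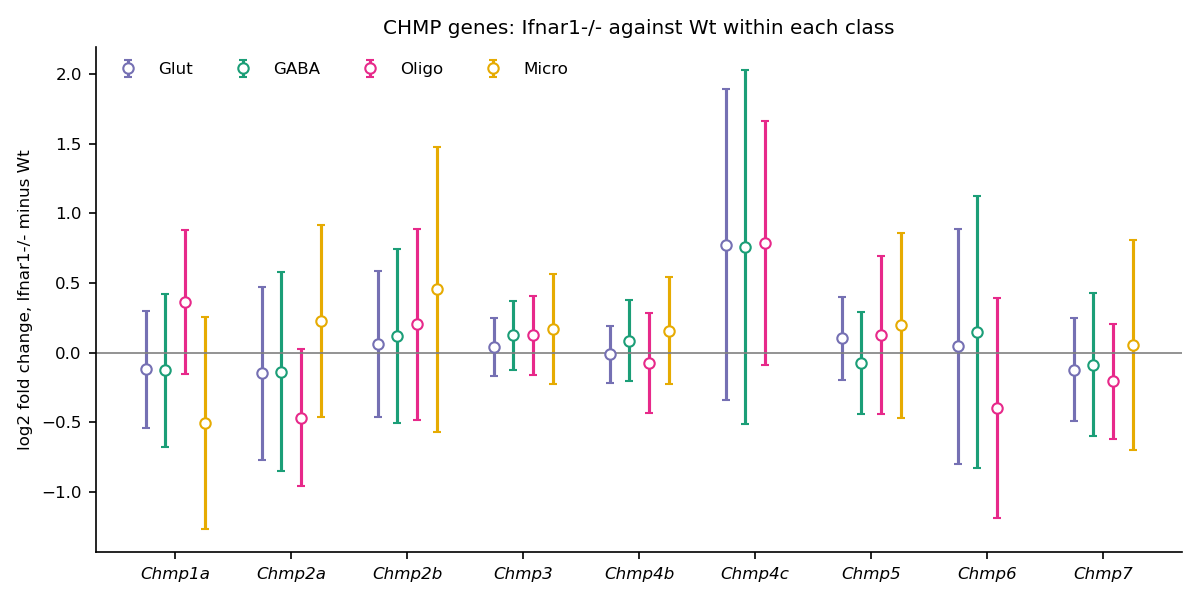
Log2 fold change of Ifnar1-/- minus Wt with its 95% interval (y axis) for each detected CHMP gene (x axis) in 4 classes, from edgeR with 4 libraries per genotype. All points are open, as none passed an adjusted p of 0.05, and every interval includes 0.

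The width of the intervals differed between members. Chmp3 was measured most closely, at 43.2 ± 4.14 CPM in Wt and 43.9 ± 3.32 CPM in Ifnar1-/- in Glut (SD, n = 4 each), with a log2 fold change of 0.04 and a 95% interval of -0.17 to 0.25. Chmp4b was as narrow, with a log2 fold change of -0.01 (-0.22 to 0.20) in Glut. In Micro the intervals were -0.22 to 0.57 for Chmp3 (0.17) and -0.23 to 0.55 for Chmp4b (0.16). Chmp7 was at -0.21 (-0.62 to 0.21) in Oligo, its highest class. Chmp6 could have differed more without being seen, with -0.80 to 0.89 in Glut. Among the other differences were Chmp2a in Oligo (-0.47, 95% interval -0.96 to 0.03) and Chmp1a in Micro (-0.51, -1.27 to 0.25). A p that misses the threshold does not show that the genotypes are alike.

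Chmp4c had the largest genotype difference in the fits, and this difference shrank most on leaving out 1 library, Ifnar1-/- F1. Over all nuclei it stood at 10.4, 11.8, 5.90 and 5.11 CPM in Wt F1, F2, M1 and M2 and at 26.0, 10.6, 4.84 and 13.0 CPM in the same order in Ifnar1-/-. Ifnar1-/- F1 was the highest of the 8 libraries over all nuclei and in each of the 4 classes, at 26.2 CPM in Glut, 21.9 in GABA, 23.2 in Oligo and 22.9 in Micro. The Micro value comes from a sum of only 175051 UMIs of all genes in 156 nuclei, so it rests on few molecules. The log2 fold change of Ifnar1-/- against Wt was 0.72 (SE 0.50) over all nuclei, 0.78 (SE 0.49) in Glut, 0.76 (SE 0.57) in GABA and 0.79 (SE 0.40) in Oligo. Without Ifnar1-/- F1 it was 0.17 (SE 0.42), 0.26 (SE 0.42), 0.19 (SE 0.52) and 0.37 (SE 0.35). In sums over all nuclei, a change in the share of a class and a change within it cannot be told apart.

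Of the other ESCRT genes on the list, 0 of 31 were called between genotypes in Glut or over all nuclei, 0 of 30 in GABA, 0 of 29 in Oligo and 0 of 28 in Micro.

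The third comparison set male against female libraries, 4 against 4, with genotype as a term in the fit. The labels give no batch, so sex and any batch that followed it cannot be told apart. Over all nuclei 6 of 9 members were called, 5 higher and 1 lower in males, where 27.2% of 19943 genes were called and 15.4% called higher. In Glut 4 of 9 were called, 3 higher and 1 lower, with 30.0% of genes called and 16.5% called higher. In GABA 3 of 9 were called, with 25.6% of genes, in Oligo 1 of 9, with 21.6%, and in Micro 1 of 7, with 19.7%. In GABA, Oligo and Micro these counts are near or below the share of all genes. In Glut the count is above it, but leaving out single libraries gave 2 to 5. The counts in these classes are not read as a result about the family.

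Among the members higher in males, Chmp6 had the largest difference over all nuclei. Over all nuclei it stood at 2.21, 1.79, 2.25 and 2.18 CPM in the female libraries and at 3.92, 5.06, 4.62 and 3.96 CPM in the male libraries, without overlap. The log2 fold change of male minus female was 1.02 (SE 0.15, edgeR adjusted p = 0.00186), with 0.97 (SE 0.19) in Glut and 0.96 (SE 0.30) in GABA, both past the threshold. The call in GABA was lost on leaving out any 1 of Wt F1, F2 and M2 and Ifnar1-/- F1, F2 and M1 (0.70 to 1.08). Chmp2b rose in males over all nuclei, from 6.11 ± 0.905 to 9.40 ± 1.20 CPM (SD, n = 4 each, log2 fold change 0.58, SE 0.15, adjusted p = 0.0193), in Glut (0.56, SE 0.13) and in Micro (1.25, SE 0.35). Its call over all nuclei was lost without Wt F2 (0.535) or Wt M2 (0.555). In Micro it was lost without Wt F2, Wt M2, Ifnar1-/- F2 or Ifnar1-/- M2 (1.05 to 1.19). Chmp1a rose from 9.87 ± 1.08 to 13.5 ± 0.862 CPM (0.42, SE 0.10, adjusted p = 0.0163), and its male and female libraries did not overlap. Without Wt F2, Wt M2 or Ifnar1-/- M1 the Chmp1a call over all nuclei was lost (0.39 to 0.41).

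Chmp2a and Chmp5 also rose in males over all nuclei. Chmp2a went from 10.3 ± 1.48 to 15.7 ± 3.62 CPM (log2 fold change 0.56, SE 0.17, edgeR adjusted p = 0.0417) and Chmp5 from 14.2 ± 0.682 to 18.3 ± 1.30 CPM (0.335, SE 0.095, adjusted p = 0.0294). Leaving out Wt F1, F2 or M2 or Ifnar1-/- F2 or M1 lost the call of Chmp2a (0.40 to 0.54). That of Chmp5 was lost without Wt F1, F2 or M2 or Ifnar1-/- F2 or M2 (0.30 to 0.36). In Oligo, Chmp5 was the single member called, at 17.1, 21.2, 18.3 and 16.01 CPM in females and 26.1, 27.6, 33.1 and 33.1 CPM in males (0.61, SE 0.18, adjusted p = 0.0261). This Oligo call was lost without Wt F1, Wt M2 or Ifnar1-/- F2, M1 or M2 (0.53 to 0.61). Chmp3, Chmp4b and Chmp7 did not pass the threshold over all nuclei, at 0.11 (SE 0.07), 0.22 (SE 0.08) and 0.21 (SE 0.13). The male libraries of Chmp3 and Chmp4b all lay above the female ones. How many of all genes separate the sexes in this way was not counted. The lack of overlap, here and for Chmp1a and Chmp6, is therefore a description only.

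Chmp4c went the other way. It averaged 14.7 ± 7.55 CPM in females and 7.21 ± 3.88 CPM in males over all nuclei (SD, n = 4 each), a log2 fold change of -1.07 (SE 0.34, edgeR adjusted p = 0.0447). The sexes overlapped, since Ifnar1-/- M2 (13.0 CPM) lay above 3 of the 4 female libraries. Without Ifnar1-/- F1 the log2 fold change was -0.74 (SE 0.33, adjusted p = 0.148), so the call was lost. It was also lost on leaving out any 1 of Wt F1, F2, M1 and M2 and Ifnar1-/- M1 (-1.12 to -0.84), so the call did not hang on Ifnar1-/- F1 alone.

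**Figure D4:**
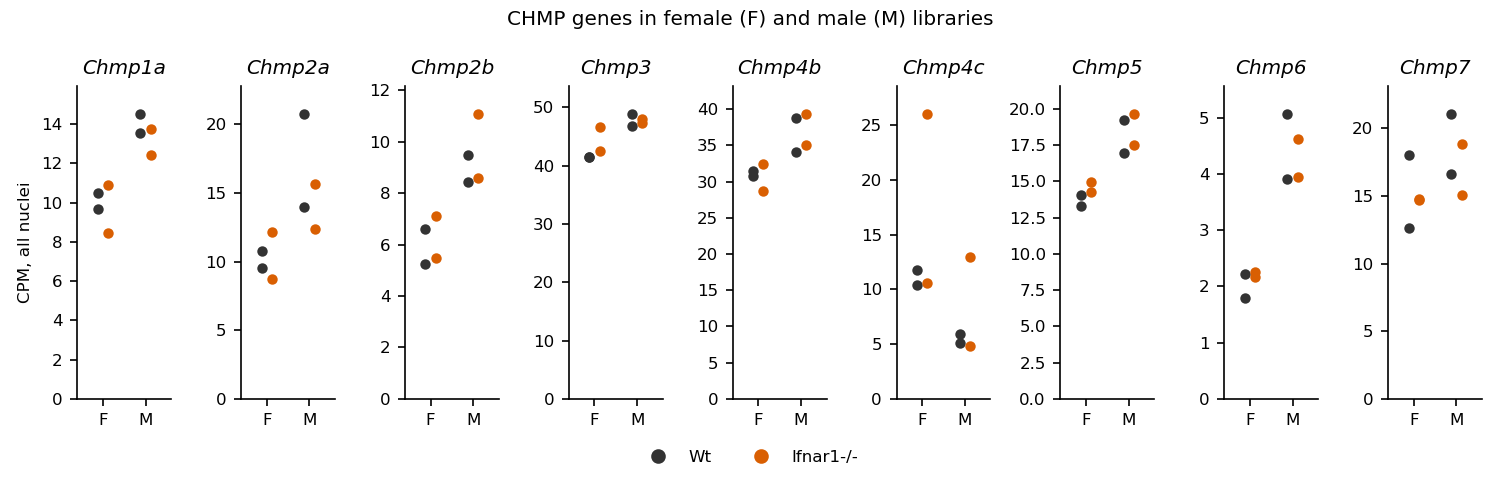
Level of each detected CHMP gene over all nuclei in CPM (y axis, linear from 0, 1 scale per gene) in female (F) and male (M) libraries, 1 point per library coloured by genotype. Chmp6 separates at 2.25 CPM against 3.92 CPM, and Chmp4c shows the single high female library at 26.0 CPM.

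The calls by sex depended on single libraries. Shares of all genes called without 1 library are not given here. The counts below are therefore not read as particular to the family. Leaving out each library in turn gave 1 to 5 members called over all nuclei, with 1 without Wt F2 or Wt M2 and 3 without Wt F1 or Ifnar1-/- M1. In Glut the count was 2 to 5, with 2 without Wt F2, Wt M2 or Ifnar1-/- M1. In GABA it was 0 without Ifnar1-/- F1, Ifnar1-/- M1 or Wt M2 and 1 without Wt F1 or Wt F2. In Oligo it was 0 without Wt F1, Wt M2, Ifnar1-/- M1 or Ifnar1-/- M2 and 2 without Ifnar1-/- F1, and in Micro 0 without Wt F2, Wt M2 or Ifnar1-/- F2. Without TMM, 6 members were called in GABA, and the shares of all genes higher and lower there moved from 14.5% and 11.1% to 18.6% and 7.34%, and in Oligo from 12.9% and 8.7% to 16.8% and 4.63%.

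Short genes as a whole were higher in males. Over all nuclei the median log2 fold change was 0.23 for genes under 5 kb, 0.09 for 5 to 20 kb, -0.02 for 20 to 100 kb and -0.13 over 100 kb. Of the 5 members that rose, Chmp2a is in the shortest class, Chmp1a, Chmp5 and Chmp6 in the 5 to 20 kb class and Chmp2b, at 23.6 kb, in the next. Mitochondrial UMIs also moved with sex, at 0.179% to 0.412% in female and 0.435% to 1.12% in male libraries. The part of gene length and of mitochondrial RNA in the sex differences was not tested.

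**Figure D5:**
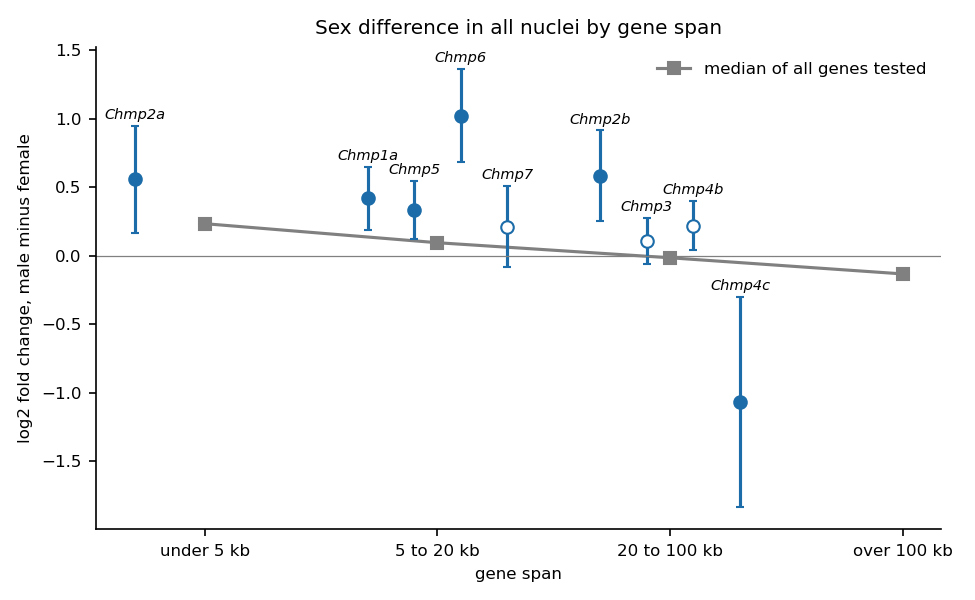
Log2 fold change of male minus female over all nuclei (y axis, 95% interval) of each CHMP gene, placed by the class of its gene span (x axis), with the median of all genes tested in grey. Filled points passed an adjusted p of 0.05, and the grey median falls from 0.23 under 5 kb to -0.13 over 100 kb.

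Of the other ESCRT genes, 14 of 31 were called between the sexes over all nuclei, where 27.2% of all genes were called. Those higher in males were Vps37d (1.58, SE 0.16), Vps28 (0.98), Mvb12a (0.68), Vps37c (0.57) and Tsg101 (0.40) of ESCRT-I, Snf8 (0.80) of ESCRT-II, and Lemd2 (0.52), Stambpl1 (0.44), Pdcd6 (0.37) and Spast (0.26), all on the log2 scale. Those lower were Stam (-0.37), Ist1 (-0.37), Cc2d1b (-0.36) and Brox (-0.28). In Glut, Vps37a (0.24) was called as well, in GABA 11 of 30 were called (25.6% of all genes), in Oligo 5 of 29 (21.6% of all genes), namely Vps37d (1.11), Vps28 (0.71), Snf8 (0.61), Stam (-0.49) and Cc2d1b (-0.55), and in Micro 2 of 28 (19.7% of all genes), Pdcd6 (0.95) and Brox (-0.54). The shares in Oligo and Micro were below those of all genes. The median log2 fold change of the list over all nuclei was 0.20, against -0.01 over all genes.

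The difference between genotypes in the size of the sex effect was tested by an interaction term. No CHMP gene passed, nor did any other gene, over all nuclei or in Glut, GABA, Oligo or Micro. At an unadjusted p under 0.05, 495 of 19943 genes were found over all nuclei and 220 of 9560 in Micro, with Chmp7 in Micro the 1 member among them (-1.28, SE 0.57). Both counts are below the 5% of genes that chance gives at this cut-off, so the Chmp7 value is not read as a result.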

How the data were processed

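Cortical nuclei of 8 mice had been profiled by 10x Single Cell 3' chemistry. The authors deposited raw UMI counts per gene and barcode, made with Cell Ranger 3.1.0 on mm10 with introns counted as exons. Groups came from the deposited labels. The members and lists were chosen with earlier results of these data known. Nuclei with over 200 and under 6000 genes, over 1000 UMIs and under 10% mitochondrial UMIs were kept, and 2287 doublets (4.21%) were removed with scrublet in scanpy 1.11.5. Clustering (3000 variable genes without CHMP and ESCRT genes, 40 components, Leiden resolution 1.5) gave 44 clusters, named from marker genes. Counts were summed per class and mouse, for libraries with at least 10 nuclei, filtered with filterByExpr and tested with edgeR 4.0.16, with DESeq2 1.42.0 as an alternative, at an adjusted p of 0.05. Scripts were tested on simulated data. All 10 members were named, with ESCRT genes past the threshold between genotypes or sexes, Ist1, Vps4a, Vps4b, Vta1 and Spast between classes and the 3 genes most like each member. Nothing says how libraries were batched. Micro sums held 175051 to 1269943 UMIs and Glut sums 24064911 to 35478753, which limits the precision in Micro.

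Same-numbered libraries of both genotypes deviated together (r = 0.554 to 0.714), and libraries of the same sex but another number did so too (0.417 to 0.824), whereas those of the other sex did not (-0.814 to -0.464). The range for the same number lies inside that for the same sex with another number. This check therefore shows likeness by sex and does not show that the numbers pair the samples, and the labels give no shared litter or day. A fit with the number as a block was still run beside that without it, and it changed no call of a member between genotypes. Cell Ranger counts reads on the sense strand of a gene by default, and reads that match overlapping genes on the same strand are dropped. Gene spans and overlaps came from a GENCODE annotation of GRCm38, which may differ from the one counted.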

Additional observations from a re-analysis of the deposited data

Results flagged for a closer look

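In 90 groups of 4 libraries (9 genes, 5 sets of nuclei and 2 genotypes), 4 held a library far from the other 3, or 4.44%, where chance gives about 5%. They were Chmp2a in Oligo of Wt F1 (15.1 CPM, the others 23.6 to 25.1), Chmp3 in Micro of Ifnar1-/- F1 (143 CPM, the others 106 to 108), Chmp5 in Micro of Ifnar1-/- M2 (50.4 CPM, the others 34.3 to 36.9) and Chmp7 over all nuclei in Ifnar1-/- M1 (18.9 CPM, the others 14.7 to 15.1). The Chmp3 value rests on 25 UMIs in 156 nuclei.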

How the results depend on the processing

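The 0 members called between genotypes held under every alternative run, including the replicate number as a block (0 called in each of Glut, GABA, Oligo, Micro and all nuclei), and the lowest adjusted p of any member was 0.831. Of the counts of members called between classes, GABA against Glut moved from 3 to 1 without the mouse as a replicate block and to 6 without TMM, Micro against Glut to 5 and Micro against Oligo to 2 in Wt mice only. Between sexes, GABA moved from 3 to 5 without the genotype term or without the filter on low counts and to 6 without TMM, Micro from 1 to 0 with DESeq2 or with doublets kept, and Oligo from 1 to 0 with DESeq2 and to 2 without the filter. Leaving out each library in turn gave 3 to 4 in GABA against Glut, 6 to 7 in Micro against GABA, 6 to 9 in Micro against Glut, 2 to 5 in Micro against Oligo, 7 to 8 in Oligo against GABA, 8 to 8 in Oligo against Glut, 1 to 5 over all nuclei (sex), 0 to 4 in GABA (sex), 2 to 5 in Glut (sex), 0 to 1 in Micro (sex), 0 to 2 in Oligo (sex), and 0 between genotypes throughout. The causes were not tested. Shares of all genes called in these alternative fits are given above only for some fits without TMM. The other counts are therefore not read as particular to the family. Depth limits Micro most, where Chmp4c and Chmp6 had 66 and 65 UMIs in all. 

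The log2 fold changes that turned sign were uncalled, except that of Chmp4c in Micro against Glut. With sex as a covariate, the sign turned for Chmp7 in Micro (genotype, -0.004). With the replicate number as a block, the sign turned for Chmp7 in Micro (genotype, -0.089). With doublets kept, the sign turned for Chmp7 in Micro (genotype, -0.081), Chmp6 over all nuclei (genotype, -0.001), Chmp2a in GABA against Glut (0.001), Chmp2a in Micro against Oligo (0.07). Without the filter on low counts, the sign turned for Chmp5 in GABA against Glut (-0.015), Chmp2b in GABA against Glut (-0.009), Chmp4c in Micro against GABA (-0.001), Chmp7 in Micro against GABA (-0.008), Chmp2a in Micro against Oligo (0). Without TMM, the sign turned for Chmp2a in GABA against Glut (0.155), Chmp1a in GABA against Glut (0.15), Chmp4c in Micro against Glut (0.016), Chmp4c in Micro against Oligo (0.066), Chmp2a in Micro against Oligo (0.27). In Wt mice only, the sign turned for Chmp2a in GABA against Glut (0.02), Chmp1a in GABA against Glut (0.022), Chmp4b in Micro against Oligo (-0.028), Chmp1a in Micro against Oligo (0.115). Without the mouse as a block, the sign turned for Chmp4c in Micro against GABA (-0.085), Chmp2a in Micro against Oligo (0.001). Leaving out each library in turn, the log2 fold changes that turned sign covered the following ranges. Between genotypes they were Chmp4b in Glut -0.052 to 0.036, Chmp3 in Glut -0.002 to 0.089, Chmp2a in Glut -0.279 to 0.148, Chmp6 in Glut -0.176 to 0.349, Chmp2b in Glut -0.097 to 0.198, Chmp5 in GABA -0.202 to 0.017, Chmp2a in GABA -0.388 to 0.205, Chmp1a in GABA -0.275 to 0.034, Chmp7 in GABA -0.245 to 0.133, Chmp6 in GABA -0.198 to 0.428, Chmp2b in GABA -0.076 to 0.271, Chmp4b in Oligo -0.239 to 0.008, Chmp5 in Oligo -0.037 to 0.272, Chmp5 in Micro -0.034 to 0.431, Chmp7 in Micro -0.17 to 0.324, Chmp4b over all nuclei -0.067 to 0.074, Chmp5 over all nuclei -0.018 to 0.166, Chmp2a over all nuclei -0.288 to 0.104, Chmp1a over all nuclei -0.173 to 0.03, Chmp7 over all nuclei -0.203 to 0.012, Chmp6 over all nuclei -0.192 to 0.309, Chmp2b over all nuclei -0.056 to 0.281. Between classes they were Chmp2a in GABA against Glut -0.044 to 0.038, Chmp1a in GABA against Glut -0.068 to 0.074, Chmp4c in Micro against GABA -0.039 to 0.199, Chmp2a in Micro against Oligo -0.194 to 0.091. Between sexes they were Chmp2a in Oligo -0.111 to 0.219, Chmp1a in Micro -0.415 to 0.024.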
